A study of Mus musculus with 4 samples.

Results

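Mammospheres are floating colonies that single mammary cells form in culture without attachment. Their transcripts were examined here for 1 quantity: how far a library from mice given both bisphenol A (BPA) and 7,12-dimethylbenz[a]anthracene (DMBA) lay from what the libraries with each agent alone predict. The measure was the log2 ratio of BPA+DMBA to DMBA minus the log2 ratio of BPA to control, called the departure from additivity below. It is 0 when the fold changes of the 2 agents multiply, positive when BPA+DMBA lies above that expectation, and negative when it lies below. The same number results if DMBA is read with and without BPA, so the departure cannot be assigned to either agent. All 4 libraries enter it, and 11675 of 22609 genes (51.6%) were used, those that reached 100 counts in 1 or more libraries.

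All mice were Balb/C, all were gavaged daily from the age of 21 days for 3 weeks, all were kept on a diet low in phytoestrogens, and mammary glands were taken at 4 months. The control mice received sesame oil, the vehicle. The BPA mice received 25 µg/kg/day of BPA. The DMBA mice received sesame oil and then a single oral dose of DMBA at 30 mg/kg at 2 months, and the BPA+DMBA mice received both. Basal cells were sorted by flow cytometry and grown for 7 days, and the spheres of 5 animals were pooled into 1 library for each group. No replicate stands behind any value. A 2 by 2 interaction then has no residual degree of freedom, so no test was made and no p-value is given. Intervals are 95% and cover counting error only, not differences between pools of animals. Whether a departure belongs to the exposures or to 1 of the pools cannot be told apart.

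BPA is a plastics monomer that binds estrogen receptors. DMBA is a polycyclic hydrocarbon that the aryl hydrocarbon receptor binds and that cytochrome P450 enzymes turn into a mutagen, and it is widely used to start mammary tumours in rodents. The basal layer of the mammary gland holds contractile myoepithelial cells marked by Krt5, Krt14 and Trp63, rests on a basement membrane, and contains cells that can rebuild a gland after transplantation. Fibroblasts of the surrounding stroma make most of the fibrillar collagen.

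Counts assigned to genes ran from 15672532 in BPA+DMBA to 30627055 in control, so the combined library was the shallowest. The basal markers Krt5, Krt14 and Trp63 were present in all 4 libraries. Markers of other cells were present as well: the luminal keratins Krt8 and Krt18, luminal progenitor genes such as Csn3, and 19 of the 20 listed fibroblast markers. Of the listed markers, 2 of 17 for immune cells (Cd68 and H2-Ab1), 2 of 9 for fat (Fabp4 and Plin4) and 0 of 7 for red cells passed the count minimum. Ptprc, the pan-leukocyte antigen, had at most 3 counts, Adipoq, the fat cell hormone, at most 5, and haemoglobin Hba-a1 had 0. Others under the minimum were higher, with up to 45 counts of Csf1r, 44 of Lyz2, 85 of Pparg and 23 of Alas2. In such bulk samples, fewer cells of a type and less RNA per cell cannot be told apart.

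Most genes lay close to additivity. The median departure was -0.009, the quartiles were -0.15 and 0.14, and 10790 genes (92.42%) lay within 1.5-fold. Of the genes used, 48.2% had a positive departure, the share to set beside the counts of signs below. Across genes the observed log2 CPM (counts scaled to a common library size) in BPA+DMBA and its additive expectation had a Pearson r of 0.983, a description of how little departs, since the libraries share the gene-to-gene range of abundance. A departure of at least 2-fold whose counting interval left out 0, called a 2-fold departure from here on, was found for 209 genes (1.79%). Of these, 142 (1.22% of the genes used) lay above additivity and 67 (0.574%) below. For 65 genes the whole interval lay beyond 2-fold, 48 above and 17 below. All 209 kept their sign when additivity was taken on the linear CPM scale instead, as did 97.9% of all genes used. The plot of observed against expected level shows the genes above the line reaching into the most abundant transcripts and those below it mostly at low and middle abundance.

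**Figure D1:**
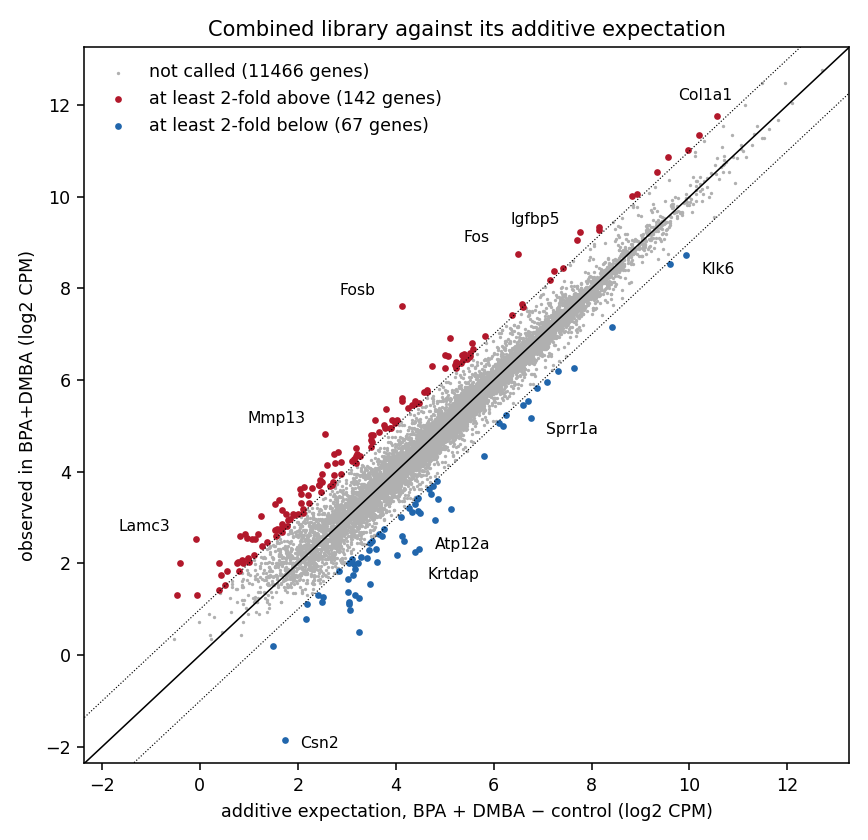
Level of each gene in the BPA+DMBA library (vertical axis, log2 CPM) against its additive expectation from the other 3 libraries (horizontal axis, log2 CPM), 1 point per gene, 1 library per group. The solid line marks additivity and the dotted lines 2-fold from it, red points are the 142 genes above, blue points the 67 below, and 92.42% of genes lie within 1.5-fold of the line.

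The genes above additivity had a common form. Control was the highest library for 85 of the 142 and BPA+DMBA for the other 57, and the lowest library was DMBA for 97 and BPA for 45. At the median, the log2 ratio to control was -0.54 for BPA and -0.74 for DMBA, while BPA+DMBA lay 0.68 above DMBA and 0.48 above BPA. The genes below additivity had the mirror form with DMBA at the top: DMBA was the highest library for 63 of 67 and control the lowest for 58. Their median log2 ratio to control was 0.59 for BPA and 1.95 for DMBA, while BPA+DMBA lay 0.62 above BPA and at -0.73 against DMBA. The choice of genes favours these patterns. The direction alone favours control or BPA+DMBA at the top in the first set and BPA or DMBA in the second, and the minimum of 100 counts in any library favours the deeper of each pair, control and DMBA. Of the 67 genes below additivity, 30 reached the minimum in DMBA alone, and of the 142 above, 21 reached it in control alone. Among those that reached it in all 4 libraries, a division made after the values were seen, DMBA was the highest library for 19 of 19 below, and above additivity control was highest for 62 of 104 and BPA+DMBA for 42. The bar chart of highest and lowest libraries shows both forms.

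**Figure D2:**
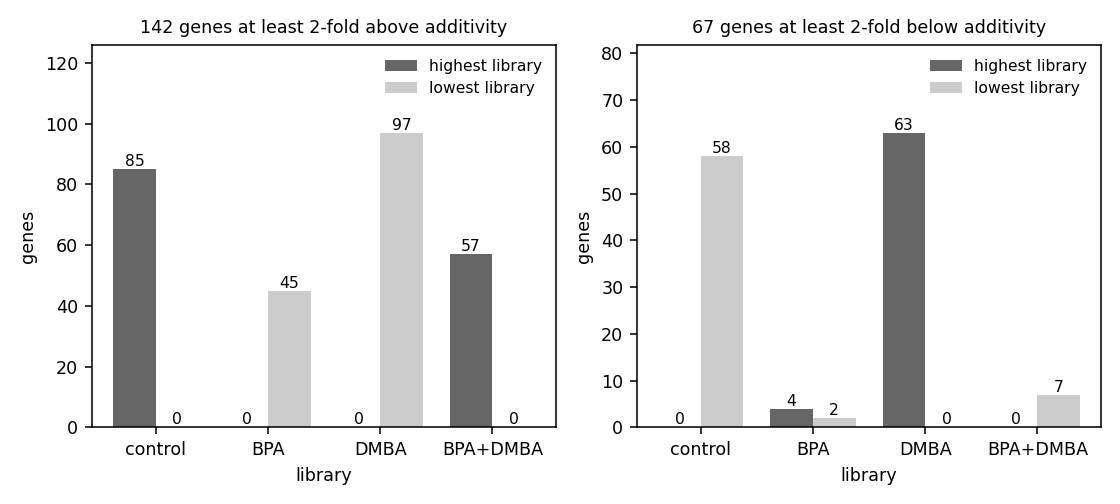
Number of genes (vertical axis) for which each library (horizontal axis) was the highest (dark bars) or the lowest (light bars), for the 142 genes above and the 67 below additivity. Control and BPA+DMBA hold the top and DMBA and BPA the bottom on the left, and DMBA holds the top for 63 genes on the right.

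A single library stood apart from the other 3, by a gap larger than their range, for 47 of the 142 genes above additivity: DMBA low for 23, BPA low for 13, control high for 7 and BPA+DMBA high for 4. Among the 67 below, it was DMBA high for 16, control low for 7, BPA high for 1 and BPA+DMBA low for 1. For the remaining 95 (66.9%) and 42 (62.7%) genes no single library stood apart, against 59.8% of all genes used, so a lone library was not more common here. Each form fixes the sign of the departure, so its share within that direction is raised by construction against its share of all genes. DMBA low held 16.2% of genes above against 6.2% of all, and DMBA high 23.9% of those below against 6.18%. The count minimum also favours DMBA high among genes below. BPA+DMBA high, at 2.82% of genes above against 5.74% of all, was less common. The BPA ratio was at least 0.5 in size on the log2 scale in opposite directions with and without DMBA for 55 of the 142 and 26 of the 67, and such a turn was always a departure of at least 2-fold by its construction.

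Genes of the extracellular matrix and of fibroblasts made up the most abundant block above additivity. Of 28 collagens, 9 showed a 2-fold departure upward and 0 downward, against 1.22% and 0.574% of all genes used. Their median departure was 0.89 against -0.01 over all genes, and 26 of 28 were positive. Of 28 matrix glycoproteins and proteoglycans, 7 lay above and 0 below, with a median of 0.75. Of 24 laminins and other basement membrane genes, 4 lay above and 0 below, with a median of 0.46. Of 19 fibroblast markers, 5 lay above and 0 below, with a median of 0.91. These lists overlap: 13 of the 19 fibroblast markers are also in 1 of the 3 matrix lists. The other 6 had a median of 0.67, with 5 positive and 1 (Thy1) past 2-fold. The plot of departure by list sets these medians beside those of the other lists.

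**Figure D3:**
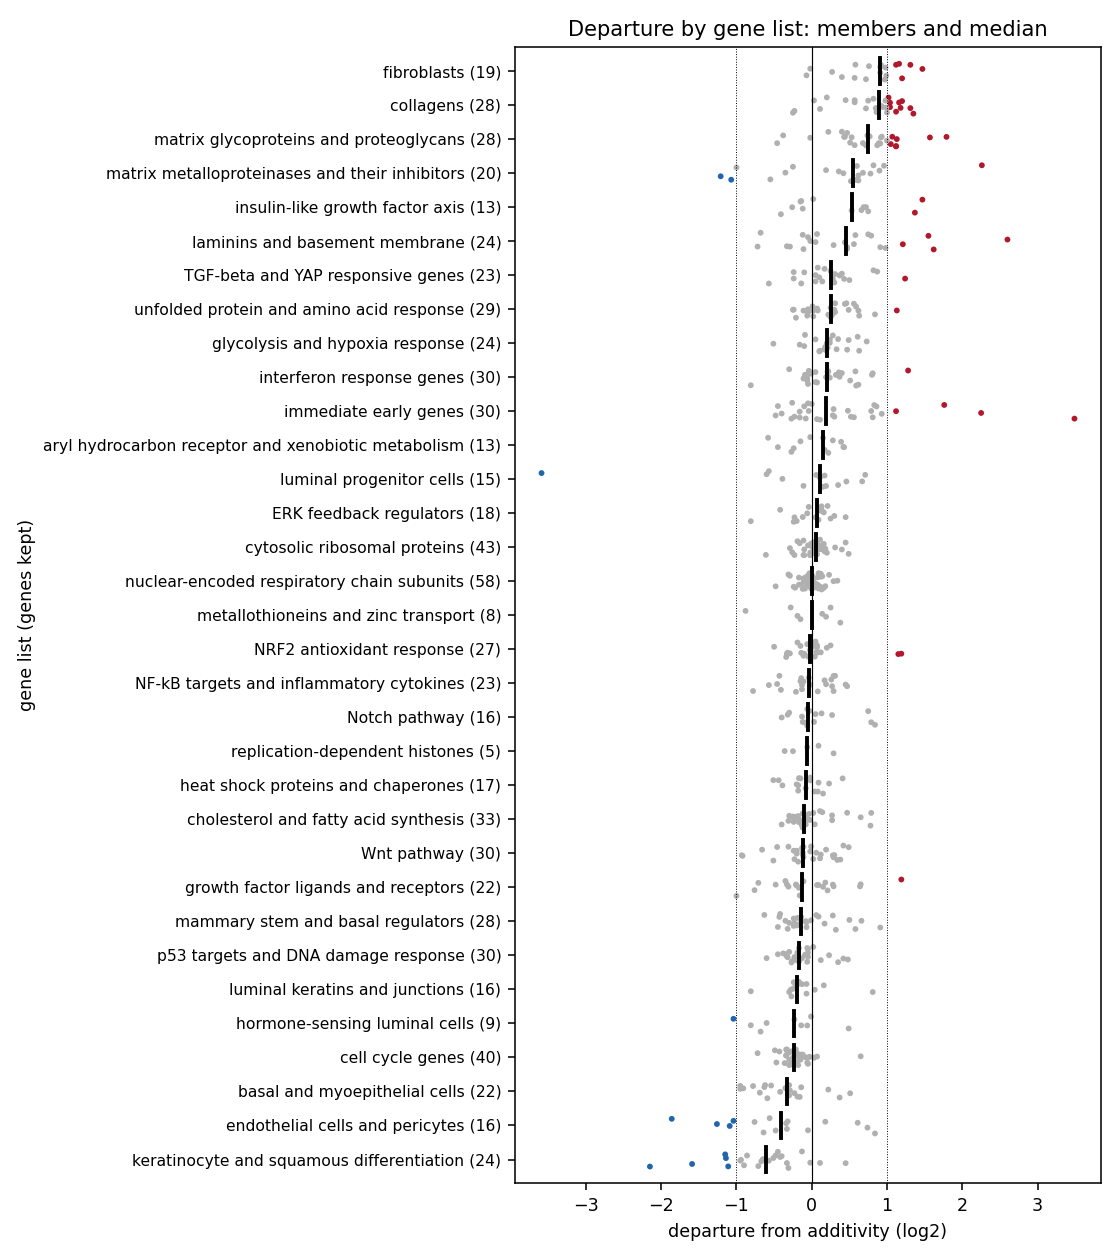
Departure from additivity (horizontal axis, log2) of every member of each gene list (vertical axis, number of genes used in brackets), for lists with at least 5 such genes. Points are genes, red and blue where they depart at least 2-fold above or below, and the black bar is the list median, which runs from 0.91 for fibroblasts to -0.61 for keratinocyte and squamous differentiation.

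The fibrillar collagens give the levels behind this. Col1a1, the main chain of type I collagen, stood at 3307.3 CPM in control, 2606.1 with BPA, 1924.6 with DMBA and 3489.6 with both. Additivity predicts 1516.6 CPM for the combined library, so the observed level was 2.3-fold above it (departure 1.20, interval 1.18 to 1.23). Col3a1, the chain of type III collagen, stood at 1971.8, 1299.1, 1149.3 and 1874.5 CPM in the same order (departure 1.31, interval 1.28 to 1.34). In both genes each single exposure was lower than control and the combined library was close to control. Col15a1, a collagen next to basement membranes, had the largest departure of the list at 1.35, with 638.8, 437.1, 303.1 and 528.9 CPM. Col1a2, Col5a2, Col11a1, Col8a1, Col8a2 and Col12a1 followed between 1.02 and 1.18. The network-forming chains Col4a1 and Col4a2 of the basement membrane departed by 0.86 and 0.85 and did not reach 2-fold. Col17a1, the collagen of hemidesmosomes in basal cells, departed by -0.23. Of 33 collagens found by their symbols, a count made after the values were seen, 10 lay above 2-fold and 1 below. Outside the list, Col24a1 departed by 1.12. Col6a4 went the other way at -1.92 (interval -2.74 to -1.11), with 1.04, 1.92, 6.15 and 2.84 CPM. Col6a4 passed the count minimum through DMBA alone, which favours a negative sign.

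Thy1, a surface protein of fibroblasts, stood at 104.0 CPM in control, 64.7 with BPA, 53.5 with DMBA and 92.3 with both (departure 1.47, interval 1.33 to 1.61). Fbn1, the microfibril protein fibrillin-1, stood at 1338.6, 960.7, 678.8 and 1061.2 CPM (departure 1.12). Fbln2, an elastic fibre and basement membrane protein, departed by 1.21, Lox, the enzyme that crosslinks collagen, by 1.12, and Eln, elastin, by 1.13. The 4 levels of Eln were 9.96, 7.23, 12.1 and 19.4 CPM, with DMBA above control and BPA+DMBA highest. Summed over the fibroblast list, the level was 17047 CPM in control, 12763 with BPA, 11500 with DMBA and 17709 with both. Of these 19 markers 17 had a positive departure, as most matrix genes did, and the part of fibroblast number in these departures was not tested. S100a4, Fbln1 and Dpt, members of the same list, departed by -0.07, -0.02 and 0.27.

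Within the basement membrane list the departures were unequal. Lamc3, a laminin gamma chain, had 300 counts in control, 76 with BPA, 64 with DMBA and 90 with both, or 10.1, 3.95, 2.30 and 5.68 CPM. Its departure was 2.60 (interval 2.02 to 3.19), the second largest upward of all genes used. Lamc3 passed the count minimum through control alone, which favours a positive sign. Smoc1, a matricellular protein that binds calcium, stood at 84.7, 51.1, 11.6 and 21.6 CPM (departure 1.62), and Frem1, a protein that anchors epithelium to its basement membrane, at 54.2, 26.7, 28.3 and 40.9 CPM (departure 1.55). In Smoc1 both libraries with DMBA lay under those without it, and BPA had a log2 ratio of -0.73 without DMBA and 0.89 with it. Other matrix and surface proteins with large departures were Spon1, an adhesion protein, at 212.4, 113.1, 64.4 and 122.2 CPM (departure 1.83, interval 1.71 to 1.95), Wisp2, a CCN family protein, at 40.4, 25.3, 4.82 and 10.3 CPM (1.76), Thbs3, a thrombospondin of the glycoprotein list (1.79), Ccdc80 (1.55) and Lrrc15, a membrane protein of activated fibroblasts (1.65). Prr16 departed by 2.40 on low counts (118, 26, 57 and 62, interval 1.62 to 3.18) and also passed the minimum through control alone.

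Igfbp5, a secreted binding protein for insulin-like growth factors, stood at 1877.8 CPM in control, 1430.4 with BPA, 285.8 with DMBA and 601.6 with both. The 2 libraries with DMBA were both far below the others. The log2 ratio of BPA was -0.39 without DMBA and 1.07 with it, a departure of 1.47 (interval 1.42 to 1.51). Of 13 genes of the insulin-like growth factor axis, 2 lay above 2-fold (1.22% of all genes used) and 0 below (0.574%), with a median of 0.53. The second was H19, an imprinted noncoding RNA, at 17.6, 11.9, 8.02 and 14.1 CPM (departure 1.37). The receptors Igf1r, Insr and Igf2r departed by 0.02, -0.12 and -0.14.

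Among 20 matrix metalloproteinases, related proteases and their inhibitors, 1 lay above 2-fold and 2 below, against 1.22% and 0.574% of all genes used. The median was 0.55. Mmp13, a collagenase, stood at 74.5 CPM in control and at 26.2, 16.7 and 28.2 with BPA, DMBA and both (departure 2.26, interval 2.03 to 2.5). Control stood alone at the top, and the other 3 libraries lay within 0.76 of each other in log2 CPM. The level with both agents was 4.8-fold above the 5.89 CPM that additivity predicts. Mmp2, a gelatinase of stroma, departed by 0.90 and Timp1, an inhibitor, by 0.82. The aggrecan-type proteases Adamts5 and Adamts1 went the other way, at -1.21 and -1.07. So did Mmp25, a matrix metalloproteinase outside the list, at -1.21 (interval -1.63 to -0.78). Of 12 Adamts proteases, grouped after the values were seen, 6 were positive and 6 negative, with a median of 0.11. Adamts1 stood at 222.9, 306.3, 567.5 and 372.0 CPM, with DMBA highest.

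The largest departure of all genes used was in an immediate early gene, a class that cells transcribe within minutes of a growth signal or of handling. Fosb, a subunit of the AP-1 transcription factor, stood at 331.6 CPM in control, 26.2 with BPA, 219.7 with DMBA and 194.7 with both. Its departure was 3.49 (interval 3.34 to 3.63), an observed level 11.2-fold above the 17.4 CPM that additivity predicts. Fos, a related subunit, stood at 596.2, 114.2, 472.3 and 430.4 CPM (departure 2.25, interval 2.17 to 2.33). In both genes the BPA library stood alone at the bottom, and the other 3 were within 0.77 of each other in log2 CPM for Fosb and 0.47 for Fos. The departure of these genes therefore rested on 1 library and not on a high level in BPA+DMBA. Klf2, a zinc finger factor, followed at 11.4, 4.89, 6.62 and 9.77 CPM (departure 1.76), and Nr4a1, an orphan nuclear receptor, at 47.8, 25.1, 38.4 and 43.9 CPM (1.12). Egr1 departed by 0.81 and Atf3 by 0.86, both under 2-fold.

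The family did not move as a whole. Of 30 immediate early genes, 4 lay above 2-fold and 0 below, against 1.22% and 0.574% of all genes used. The median was 0.19, with 18 positive and 12 negative, where 48.2% of all genes used were positive. The Jun subunits that pair with Fos proteins departed little, Jun by 0.30, Junb by 0.11 and Jund by -0.16. Fosl1 and Fosl2, the other Fos relatives, departed by -0.45 and -0.27. Of 18 genes that respond to ERK signalling or dampen it, 0 reached 2-fold in either direction, with a median of 0.07. The plot of levels by library shows the low BPA library in the immediate early genes beside the other 2 forms.

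**Figure D4:**
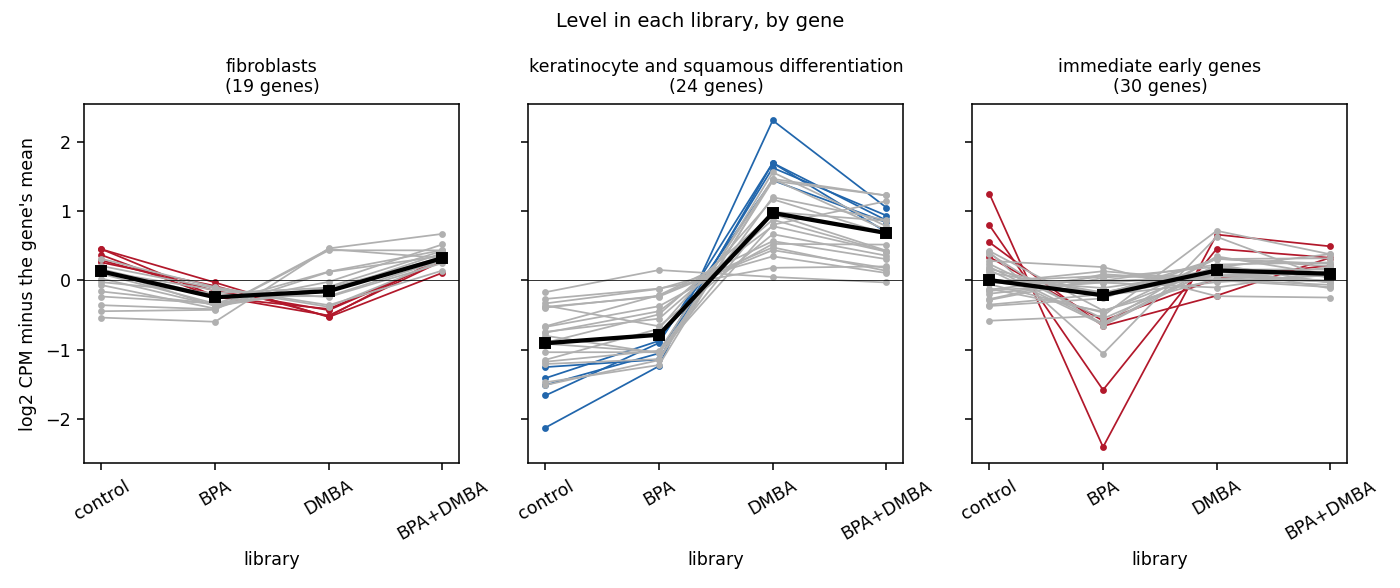
Level of each gene in the 4 libraries (horizontal axis) as log2 CPM minus the gene's own mean (vertical axis), for fibroblast markers, keratinocyte and squamous genes, and immediate early genes. Each thin line is a gene, red or blue where it departs at least 2-fold above or below, and the thick line is the median: BPA and DMBA lie low on the left, DMBA lies high in the middle, and BPA alone lies far below the rest for Fosb and Fos on the right.

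Genes of keratinocytes and squamous differentiation made up the largest listed block below additivity. Of 24 such genes, 0 lay above and 5 below 2-fold, against 0.574% of all genes used. Their median was -0.61, and 22 of 24 were negative, where 48.2% of all genes used were positive. These 24 of the 42 listed genes found had passed the count minimum, and passing it through DMBA alone favours a negative sign. Krtdap, a secreted keratinocyte protein, stood at 0.437 CPM in control, 0.884 with BPA, 11.3 with DMBA and 4.67 with both (departure -2.15, interval -3.19 to -1.11). Sprr1a, a protein of the cornified envelope, stood at 6.16, 10.5, 63.9 and 35.8 CPM (departure -1.59, interval -1.91 to -1.27). In both, the 2 libraries with DMBA were the higher pair, and BPA went with a higher level without DMBA and a lower one with it. Krt79 (-1.15), the desmosomal cadherin Dsc3 (-1.14) and the peptidase Klk7 (-1.11) completed the 5, and Krt79 came to -0.91 when every library was thinned to the smallest total. Krt17, a keratin of stressed and basal epithelium, departed by -0.95 (212.2, 290.8, 1058.4 and 748.9 CPM). Summed over the list, the level was 893 CPM in control, 1089 with BPA, 3146 with DMBA and 2316 with both. Krtdap (13, 17, 314 and 74 counts) passed the count minimum through DMBA alone, while Sprr1a, Krt79, Dsc3 and Klk7 reached it in all 4 libraries. The list median and signs were not taken apart by this.

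Genes outside that list with DMBA highest and control lowest included Klk6, a kallikrein peptidase, at 197.1, 259.2, 735.6 and 423.6 CPM (departure -1.19, interval -1.26 to -1.12), Cst6, a cysteine protease inhibitor of skin, at 40.7, 50.6, 275.4 and 143.3 CPM (-1.25), and Elovl4, an enzyme that makes very long chain fatty acids of the skin barrier, at 19.3, 29.8, 129.3 and 76.7 CPM (-1.37). Atp12a, a proton pump, stood at 1.08, 1.3, 18.6 and 4.92 CPM (-2.15), Crct1, a cornification protein, at 2.76, 4.99, 19.4 and 8.95 CPM (-1.94), Lipm, a lipase of keratinocytes, departed by -2.09, and Cpa4, a carboxypeptidase, by -2.74 on 8, 14, 112 and 21 counts. In Lipm the levels were 1.48, 2.29, 5.47 and 1.89 CPM, so DMBA alone stood high. In the others both libraries with DMBA lay above both without it. Atp12a, Lipm and Cpa4 passed the count minimum through DMBA alone, which favours a high DMBA library and a negative sign. Families picked after their values were seen had the same sign: all 6 kallikreins were negative (median -0.97, 3 past 2-fold), as were 12 of 14 keratins (median -0.50, 2 past 2-fold). Among all genes used 0.574% lay below 2-fold and 48.2% were positive. Klk7 and Krt79, among those past 2-fold, are also in the squamous list above, so these families partly repeat it. Krt15, a keratin of epithelial progenitors, was the other keratin past 2-fold, at -1.46. Kallikreins, keratins and Sprr genes include close relatives whose reads the counting could split, and the strand setting was not given in the sources used here, so values of single members are uncertain to that extent.

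The plot of the genes with the most firmly counted departures sets both directions side by side with their intervals. Below additivity the counts are lower and the intervals wider. Genes there from outside skin and matrix included Nefm, a neurofilament (-2.0), Nptx1, a pentraxin of neurons (-1.67), the G protein regulators Rgs5 (-1.86) and Rgs4 (-1.83). Rgs4 passed the count minimum through DMBA alone, which favours a negative sign. Prnd, a prion-like protein, departed by -1.46. Serpina3n, a protease inhibitor of the acute phase, lay above at 1.57, with 54.4, 32.6, 44.5 and 79.4 CPM, and belongs to a cluster of near-identical copies.

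**Figure D5:**
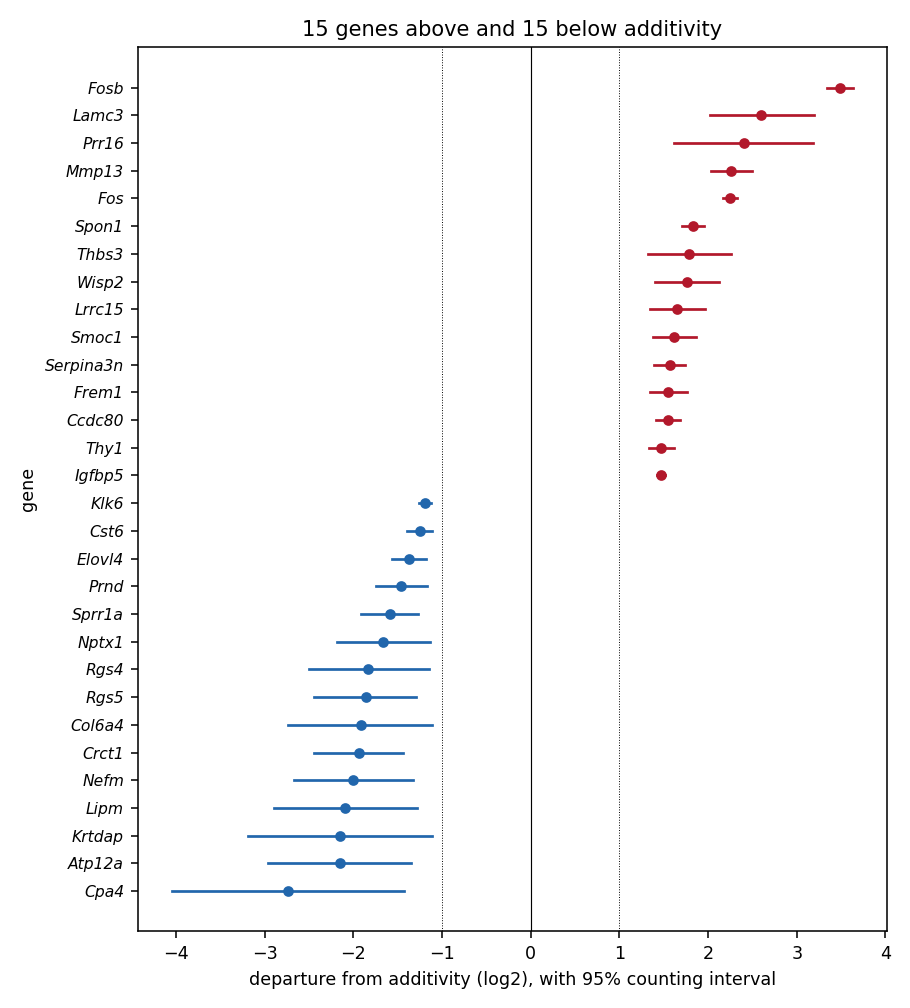
Departure from additivity (horizontal axis, log2) of the 15 genes above and 15 below (vertical axis) whose 95% counting interval has its nearer bound farthest from 0, with that interval as a bar and dotted lines at 2-fold. Fosb leads at 3.49 with a narrow interval, while Cpa4 at -2.74 has the widest.

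No marker of the sorted cell type reached 2-fold, though Krt17 came to -1.01 when scaled by total counts alone. Among all genes used 1.22% lay above and 0.574% below, so a list of this size would mostly hold none. Of 22 basal and myoepithelial genes used, the median was -0.33 and 19 were negative. Cnn1, Lmod1 and Actg2 of these passed the count minimum through DMBA alone, which favours a negative sign. Krt5 stood at 118.1, 148.5, 560.3 and 468.8 CPM (departure -0.59, interval -0.67 to -0.51), Krt14, its partner, at 298.7, 314.0, 880.7 and 813.0 CPM (-0.19), and Trp63, the transcription factor of basal epithelium, at 41.0, 47.9, 100.2 and 75.6 CPM (-0.63). The smooth muscle genes of the list had mixed signs, with Acta2 at 0.37 and Cnn1 at -0.91. Summed over the list, the level was 2838 CPM in control, 2975 with BPA, 5279 with DMBA and 4667 with both. This sum and that of the squamous list were both highest in DMBA, and the part of basal cell number in the squamous departures was not tested. Of 28 regulators of mammary stem and basal cells, 0 reached 2-fold. Zeb2, a factor of mesenchymal cells, departed most at 0.91.

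Luminal genes mostly stayed under 2-fold, as did most genes used (1.22% lay above and 0.574% below). By their medians, 2 of the 3 luminal lists leaned below additivity. The lists share members: Areg is in the hormone-sensing list and the keratin and junction list, and Prom1 in the hormone-sensing and progenitor lists. Of 16 luminal keratins and junction genes, 0 reached 2-fold, with a median of -0.19 and 13 negative, where 48.2% of all genes used were positive. Krt8 departed by -0.25 and Krt18 by -0.13. Of 15 luminal progenitor genes, with a median of 0.11 and 10 positive, 0 lay above and 1 below. That gene was Csn2, the milk protein beta-casein, with 2, 0, 162 and 3 counts. It passed the count minimum through the DMBA library alone, and its departure of -3.59 had an interval from -6.36 to -0.83, so its size is poorly fixed. With no prior count and with 3 counts in place of 0 in BPA, it came to -6.16. Of 9 hormone-sensing luminal genes, with a median of -0.23 and 8 negative, 0 lay above and 1 below. Pgr, the progesterone receptor and an estrogen target, stood at 14.2, 21.8, 45.1 and 33.5 CPM (departure -1.04, interval -1.28 to -0.80). Esr1, the estrogen receptor alpha, had 97, 52, 61 and 36 counts, under the minimum of 100, and was not used.

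The endothelial and pericyte list gave opposite signs by its median and by its sum. Of 16 genes 0 lay above and 4 below, against 1.22% and 0.574% of all genes used, with a median of -0.41. They were Rgs5, a pericyte marker (1.92, 3.48, 15.7 and 7.63 CPM), and Kdr, a receptor for vascular growth factor (-1.26). The others were Selp, an adhesion receptor (-1.09), and Emcn, a mucin of vessel lining (-1.04). Kdr passed the count minimum through DMBA alone, and Rgs5, Selp and Emcn only through the libraries with DMBA. Selp and Emcn came to -0.96 and -0.94 with a prior count of 10. The summed level was 428, 421, 436 and 541 CPM, a departure of 0.34 for the sum, with the abundant members Cspg4 (0.74) and Notch4 (0.84) positive. Cspg4 and Notch4 are also expressed outside vessels. Nerve and Schwann cell markers had 3 genes above the count minimum, with Nefm alone past 2-fold.

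No listed gene of DMBA sensing and metabolism reached 2-fold, where 1.22% of all genes used lay above and 0.574% below. At that share a list of this size would mostly hold none, so the count says little about the class. Of 13 genes of the aryl hydrocarbon receptor and of xenobiotic metabolism, 0 lay above or below, with a median of 0.15. Cyp1a1, the oxidase that the receptor induces, stood at 1.45, 2.86, 4.75 and 6.12 CPM, and its departure of -0.58 had an interval of -1.26 to 0.09 that holds 0. Cyp1b1 departed by 0.17 and Ahr, the receptor, by -0.45. Of 27 antioxidant genes under NRF2, 2 lay above 2-fold, against 1.22% of all genes used. Both are extracellular enzymes, Sod3 (1.19) and Gpx3 (1.15). Of 30 p53 targets and DNA damage response genes, 0 reached 2-fold, a count also near the share of all genes used. Their median was -0.17 and 24 were negative, where 48.2% of all genes used were positive.

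Few genes of the growth and housekeeping lists reached 2-fold, where 1.22% of all genes used lay above and 0.574% below. At that share a list of this size would hold few such genes or none, so these counts say little about the lists. Of 40 cell cycle genes, 0 reached 2-fold, but 37 were negative, where 48.2% of all genes used were positive. Their median of -0.24 lay under the lower quartile of all genes used (-0.15), a small shift of most of the list. Cdc20, an activator of mitotic proteolysis, departed by -0.72 and E2f1, a factor of S phase entry, by 0.65. The 43 cytosolic ribosomal proteins had a median of 0.05 and the 58 respiratory chain subunits a median near 0, each with 0 genes past 2-fold. No gene reached 2-fold among 33 genes of cholesterol and fatty acid synthesis (median -0.10), 30 of the Wnt pathway (-0.11), 16 of the Notch pathway (-0.05), 24 of glycolysis and the hypoxia response (0.20), 23 of NF-kB (-0.04), 17 heat shock proteins and chaperones (-0.08), 8 of metallothioneins and zinc transport, or 5 replication-dependent histones (-0.06). One gene lay above in each of 4 further lists: Ifi44 (1.28) of 30 interferon response genes, Ltbp2, a TGF-beta binding protein (1.24), of 23 TGF-beta and YAP responsive genes, Slc7a3, an amino acid transporter (1.13), of 29 unfolded protein and amino acid response genes, and Fgf10, a ligand that stroma sends to epithelium (1.19), of 22 growth factor ligands and receptors. Of the 209 genes with a 2-fold departure, 48 were in a list and 161 in none.

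The share of genes that departed varied with abundance. It was 5.53% of 1031 genes whose highest library held 100 to 200 counts, 0.719% of 973 genes at 5000 to 10000 counts, and 3.64% of 467 genes at 10000 counts or more. The median counting interval reached 0.58 to either side in the first of these groups and 0.06 in the last. Of the 17 genes in the last 15 lay above additivity. They were, listed after their values were seen, Fos, Igfbp5, Col1a1, Col1a2, Col3a1, Col5a2, Col8a1, Col15a1, Fbn1, Fbln2, Bgn, Lox, Fstl1, Sparcl1 and Clic6, and the 2 below were Klk6 and Adamts1. Just inside the count minimum, at 100 to 104 counts, 54 genes had a median departure of -0.03 and 1 of them departed 2-fold. Just outside, at 95 to 99 counts, 95 genes had a median of 0.12 and 10 departed.

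Because Fos and Fosb are AP-1 subunits and Mmp13 is a textbook AP-1 target, the bases before the start site of genes in both directions were searched for the AP-1 letters TGAGTCA and TGACTCA, which are each other on the opposite strand and do not overlap the other motifs searched. The 3 genes below hold a match and were chosen after their values were seen, Mmp13 above additivity and the squamous genes Krtdap and Sprr1a below it. Each run gives the 250 bases before the start, 5′ to 3′ on the gene's strand, from RefSeq on GRCm38.p6, with AP-1 matches in capitals. The submitters' processing notes name the older build mm9, so the coordinates are not those of the counts.
Mmp13, chr9:7272264-7272513, plus strand: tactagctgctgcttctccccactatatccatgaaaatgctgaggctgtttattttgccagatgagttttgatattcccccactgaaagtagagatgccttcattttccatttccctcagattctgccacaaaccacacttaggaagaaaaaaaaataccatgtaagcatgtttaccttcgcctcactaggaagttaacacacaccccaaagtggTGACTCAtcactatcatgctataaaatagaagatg
Krtdap, chr7:30787655-30787904, plus strand: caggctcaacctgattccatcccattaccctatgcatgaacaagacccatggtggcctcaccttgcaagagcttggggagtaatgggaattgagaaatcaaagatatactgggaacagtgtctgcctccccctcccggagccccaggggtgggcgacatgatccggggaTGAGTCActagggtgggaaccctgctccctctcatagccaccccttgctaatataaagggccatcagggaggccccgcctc
Sprr1a, chr3:92485882-92486131, minus strand: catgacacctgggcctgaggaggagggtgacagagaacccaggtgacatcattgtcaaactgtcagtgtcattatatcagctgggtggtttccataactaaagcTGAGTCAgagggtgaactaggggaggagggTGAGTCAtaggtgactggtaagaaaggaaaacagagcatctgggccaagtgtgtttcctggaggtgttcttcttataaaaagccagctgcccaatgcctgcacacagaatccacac

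The match begins 35 bases before the start in Mmp13, 81 before it in Krtdap, and 146 and 116 before it in Sprr1a. Windows of 250 bases before to 50 after each start were found for 8341 of the 11675 genes, and 3.98% of their 10719 windows held a match, against 7.21% of 111 windows (95 genes) above additivity and 12.2% of 49 windows (41 genes) below. These are 8 and 6 windows. They held genes of both directions, among them Lrrc15 above and Cpa4 below, and the shares are descriptions without a test. The windows of Fos, Fosb, Nr4a1 and Klf2 held no match. A match is a run of letters and not a shown binding site. The AP-1 letters were not alone in this: the letters TATAAA were in 6.93% of windows of genes used, 12.6% of those above and 16.3% of those below. The cyclic AMP response letters TGACGTCA were in 3.13% of windows of genes used, 2.70% of those above and 0.0% of those below.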

How the data were processed

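The 4 libraries hold 1 pool of 5 animals each. Whole-number read counts were deposited by the authors for each gene symbol. The 5 summary entries were dropped: they took 11.3% to 13.5% (no gene), 22.9% to 25.6% (not unique) and 0.435% to 0.449% (ambiguous) of reads. CASAVA 1.8.2, HTSeq, DESeq and mm9 appear in the submitters' processing notes. What each did, the aligner and whether strand was read is not given in the sources used here. A count of 0 allows up to 3 counts, 0.098 to 0.191 CPM.

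Library sizes were scaled with edgeR 4.0.16 (TMM factors from 0.970 to 1.04), and log2 CPM took a prior count of 2. The interval used 1/(count + 2) summed over the 4 libraries as variance. It was checked only on simulated counts drawn with counting error and no differences between pools, so the check says nothing about such differences. DESeq2 1.42.0 gave alternative size factors. The text names the 15 genes per direction whose nearer interval bound lay farthest from 0 (predicted names left out), up to 4 members of each of 38 lists by size of departure, and a fixed set of markers. Other genes were chosen after their values were seen. Members and lists were chosen with earlier results of these data known.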

Additional observations from a re-analysis of the deposited data

Results flagged for a closer look

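In 2 genes the log2 ratio of BPA was at least 2-fold in opposite directions with and without DMBA. Lamc3, a laminin chain, was lower in BPA than in control by a log2 ratio of -1.33 and higher in BPA+DMBA than in DMBA by 1.27, a departure of 2.60. Cpa4, a carboxypeptidase, was higher by 1.20 without DMBA and lower with it (-1.54), a departure of -2.74. Each pair is 1 library against 1 library, so the difference between the 2 ratios was not tested beyond its counting interval. Lamc3 rests on 64 to 300 counts per library and Cpa4 on 8 to 112. Lamc3 passed the count minimum through control alone, which favours a positive departure, and Cpa4 through DMBA alone, which favours a negative one.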

How the results depend on the processing

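No paired analysis was possible because each group holds 1 library, and no library could be left out, since the departure needs all 4. Main counts were 209 genes past 2-fold, 142 above and 67 below. They moved by more than 1.5 times with the filter and the threshold. At a minimum of 20 counts they were 423, 248 and 175, and without a filter 480, 280 and 200. With at least 100 counts in every library the total was 122 and the lower count 20, and 83.6% of calls were then higher, against 67.9% in the main result. At 1.5-fold they were 853, 538 and 315, and with the whole interval beyond 2-fold 65, 48 and 17. Total counts alone as the scaling gave 193 genes, 184 of them shared with the main result, and 60.6% higher. DESeq2 size factors shared 204 of 208, a prior count of 10 shared 183 of 183, and thinning to the smallest library shared 187 of 233. Of 161 genes named by the rule, 1 changed sign under another scaling, prior count, thinning or the removal of the length trend (Mbp, -0.05, from -0.1 to 0.02), and list medians changed sign only for lists near 0 (NRF2, metallothioneins, ribosomal proteins, respiratory chain, immune cells). Csn2 ranged from -4.19 to -2.75 over the same alternatives. The sums of collagens and fibroblast genes rest on deep counts, while most genes below additivity rest on few counts in control and BPA. Departure had a Spearman rho of -0.0661 with transcript length across 11585 genes, which are not independent, and removing that trend left 202 of the 209 calls.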

Other observations

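Genes of complement and the acute phase, grouped after their values were seen and so given only as values, lay above additivity. All 13 used were positive, with a median departure of 0.64 and 6 past 2-fold. Among all genes used 48.2% were positive and 1.22% lay above 2-fold. Hp, haptoglobin, stood at 108.6 CPM in control, 57.8 with BPA, 32.9 with DMBA and 48.7 with both (departure 1.47). Serping1, the inhibitor of the first complement component, stood at 34.9, 19.5, 22.4 and 29.1 CPM (1.21), and Hc, complement C5, at 31.2, 17.3, 27.1 and 34.8 CPM (1.20). C3, the central and most abundant complement protein here, departed by 0.40.

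Foxi1, a transcription factor of ion-pumping epithelial cells, and Atp6v1b1, a proton pump subunit found in such cells, also lay above additivity. Foxi1 stood at 40.9, 30.6, 15 and 23.3 CPM (departure 1.06) and Atp6v1b1 at 47.3, 30.8, 18.2 and 34.7 CPM (1.54). They too were picked after their values were seen. Other proton pump genes lay below. Atp6v0a4, a subunit of the same type of pump as Atp6v1b1, stood at 1.95, 2.34, 9.46 and 5.55 CPM (-1.01). Atp12a departed by -2.15. Atp6v0a4 and Atp12a passed the count minimum through DMBA alone, which favours a negative sign.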
